A study of Homo sapiens with 28 samples.

Results

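The epidermal growth factor receptor family was followed at the RNA level in LNCaP cells, an androgen-responsive line from a lymph node metastasis of prostate cancer. The genes were 4 receptors (EGFR, ERBB2, ERBB3 and ERBB4) and 5 ligands (AREG, EREG, HBEGF, TGFA and EGF). They were chosen by name, with earlier results of these data known, and are 9 of the 26443 genes that have a value in the files. All 28 polyA RNA-seq libraries in 12 groups were used. In the knockdown series the cells carried shHOXB13+shp300/CBP, shHOXB13+shp300, shHOXB13+shCBP or shHOXB13, or the matched shCtrl+shp300/CBP, shCtrl+shp300, shCtrl+shCBP or shCtrl, with 2 libraries each. In the CCS1477 series, shHOXB13 CCS1477, shHOXB13 DMSO, shCtrl CCS1477 and shCtrl DMSO cells had 3 libraries each, and the compound, an inhibitor of the p300/CBP bromodomain, was given at 250 nM for 48 h. Every group was a lentiviral short hairpin line in serum-containing medium, with the control vector in place of the HOXB13 hairpin in shCtrl cells. HOXB13, p300 and CBP were each targeted by 1 hairpin sequence, so hairpin and gene cannot be told apart.

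ERBB receptors are membrane tyrosine kinases that pair with each other when a ligand binds and then signal through the RAS-ERK and PI3K-AKT cascades. EGFR binds EGF, TGF-alpha, amphiregulin and HB-EGF. ERBB2 has no known ligand of its own and acts as a partner, ERBB3 has little kinase activity and recruits PI3K, and ERBB4 binds neuregulins. The ligands are made as membrane-bound precursors that ADAM proteases release.

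The libraries held 7458934 to 16338528 mapped reads. Between 52.66% and 74.29% of these fell in genes in the knockdown libraries, and between 78.37% and 83.97% in those with CCS1477 or DMSO. This share moved with the groups in the knockdown series. It was lowest in shHOXB13+shp300/CBP cells at 52.66–61.56%, with 66.32–68.84% in shHOXB13 cells, 68.05–70.64% in shCtrl+shp300/CBP cells and 72.22–74.29% in shCtrl cells, and its part in the results was not tested. HOXB13 RNA was 11.2–11.4 FPKM in shHOXB13 cells and 85.4–87.6 FPKM in shCtrl cells, and 28.4–32.2 FPKM in shHOXB13 DMSO cells and 140–147 FPKM in shCtrl DMSO cells. HOXB13 RNA was also lower where hairpins to p300 and CBP were added, at 6.59 ± 1.9 FPKM in shHOXB13+shp300/CBP cells against 11.28 ± 0.0979 FPKM in shHOXB13 cells (SD, n = 2 each; −0.80 on the log2 scale, limma adjusted p = 0.0051). In the control background it was 49.3 ± 6.17 FPKM in shCtrl+shp300/CBP cells and 47.3 ± 5.9 FPKM in shCtrl+shCBP cells, against 86.5 ± 1.59 FPKM in shCtrl cells (SD, n = 2 each), and its part in results from these 3 arms was not tested. EP300, the p300 gene, was 5.89 ± 1.26 FPKM in shCtrl+shp300/CBP cells and 10.99 ± 0.738 FPKM in shCtrl cells, where it passed the test described below, but CREBBP, the CBP gene, was 4.36 ± 0.511 and 6.20 ± 0.338 FPKM in the same groups and did not reach 1.5-fold (−0.50, limma adjusted p = 0.0442). In shHOXB13+shp300/CBP cells EP300 averaged 4.32 FPKM and CREBBP 4.10 FPKM, against 5.75 and 4.93 FPKM in shHOXB13 cells, and neither fall passed (−0.41 and −0.27 on the log2 scale, limma adjusted p = 0.0729 and 0.227). EP300 was also lower in shHOXB13 than in shCtrl cells (−0.92, limma adjusted p = 0.000671). CREBBP did not pass there (−0.32, limma adjusted p = 0.122). In the DMSO arms both were lower in shHOXB13 cells (−0.86 and −0.97, limma adjusted p = 4.43e-05 and 6.25e-06). Both were higher in shHOXB13 CCS1477 than in shHOXB13 DMSO cells (0.74 and 1.16, limma adjusted p = 0.000348 and 5.81e-06). The part of these changes in the results was not tested. In the arms with a single added hairpin, EP300 averaged 3.28 FPKM in shHOXB13+shp300 and 4.61 FPKM in shCtrl+shp300 cells. CREBBP averaged 3.14 FPKM in shHOXB13+shCBP and 3.16 FPKM in shCtrl+shCBP cells. Each was below its level in the matching shp300/CBP arm, a difference that was not tested. The paper checked knockdown of p300, CBP and HOXB13 by western blot in LNCaP cells, and protein was not measured here. Results from all of these arms are given by their labels. Luminal prostate markers such as KLK3, KRT8 and KRT18 were detected in all 28 libraries, whereas the basal markers KRT5 and TP63 were listed at 0 in 18 and 26 of them. The summed FPKM of the 9 luminal markers was 4220–4350 in shHOXB13 cells and 2310–2470 in shCtrl cells, and the sum of the 4 basal markers, mostly KRT14, was 0.214–0.281 and 3.18–3.67 FPKM in the same groups. The luminal sum was also lower in shHOXB13+shp300/CBP cells, at 1150–1240 FPKM, and in shHOXB13 CCS1477 cells, at 2330–2440 FPKM against 6050–7010 FPKM in shHOXB13 DMSO cells. The part of these markers in the results was not tested. The sum of 3 immune markers, nearly all CD68, was 13.8–40.2 FPKM in shHOXB13+shp300/CBP cells and 9.3–12.3 FPKM in shHOXB13 cells, and PTPRC and CD3E were listed at 0 in 27 libraries each. In this bulk RNA, fewer expressing cells and less RNA per cell cannot be told apart. Library 1 of shCtrl DMSO and library 1 of shCtrl CCS1477 stood apart from the other 2 of their group, and the shHOXB13+shp300/CBP libraries were the least alike pair, with a correlation of 0.9365 on the log2 scale.

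FPKM (fragments per kilobase of gene, scaled to the mapped reads of the library) is scaled to gene length, so levels can be set side by side between genes. ERBB2 was the most abundant member in most libraries, at 41.2–171 FPKM with a median of 65.8 over the 28 libraries. ERBB3 came next at 17.2–62.0 FPKM (median 35.3), and EGFR followed at 4.11–15.4 FPKM (median 6.84). HBEGF ranged over 1.24–18.7 FPKM (median 5.12), EGF over 0.97–8.45 (median 3.15) and TGFA over 0.816–3.69 (median 2.3), and these ranges overlap. AREG stayed at 0–1.38 FPKM, with 102 reads over all libraries and 8 libraries at 0. ERBB4, a neuregulin receptor, had 52 reads over all libraries and at most 0.0401 FPKM. EREG, which encodes epiregulin, had 0 reads in every library, which allows up to 3 reads among the 311355588 mapped reads (counting error only). ERBB4 and EREG were therefore not detectable above background at this depth and entered no test.

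Differences were tested with limma on log2(FPKM + 0.1), 1 fit per series over all genes, with Benjamini-Hochberg adjusted p values. A gene passed at an adjusted p under 0.05 and a change of at least 1.5-fold. Log2 changes are given with their standard errors (SE) and FPKM means with standard deviations (SD). With HOXB13 knockdown, 4 of the 7 members tested passed in the knockdown series, namely ERBB2, HBEGF and EGF higher and TGFA lower, where 7.15% of all 17678 genes were higher and 26.8% lower. In the DMSO arms of the CCS1477 series, 3 of 7 passed, and ERBB2, HBEGF and EGF were again the higher ones, where 8.58% of 15907 genes were higher and 30.6% lower. The median log2 change over all genes was −0.33 in both of these comparisons, as deposited, and close to 0 with median-of-ratios scaling. With that scaling the calls in the knockdown series were 2432 higher and 2199 lower instead of 1264 and 4741, and in the DMSO arms 2682 and 2865 instead of 1365 and 4860. The p300/CBP, p300 and CBP arms set against their matched shCtrl arms shifted likewise, from −0.35 to −0.30 as deposited.

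**Figure D1:**
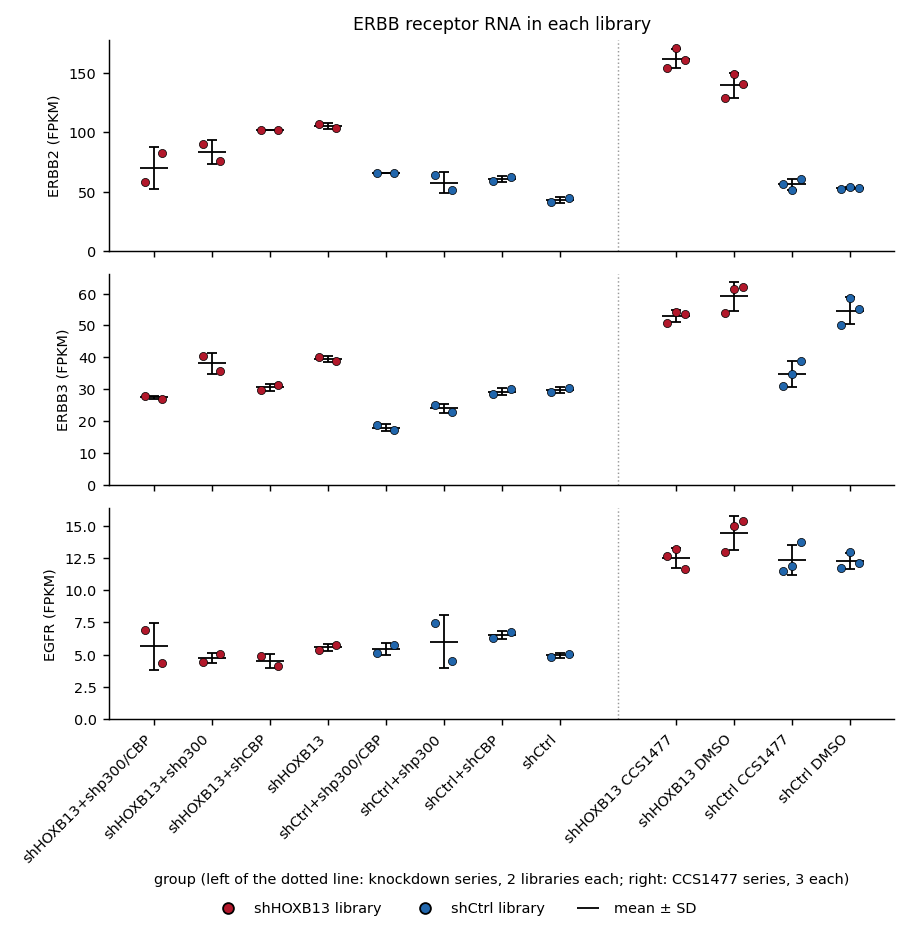
FPKM (vertical axes, linear, from 0) of ERBB2, ERBB3 and EGFR in every library, with groups on the horizontal axis; points are libraries, the bar is the mean and whiskers the SD. ERBB2 was 104–107 FPKM in the shHOXB13 libraries and 41.2–45.03 FPKM in the shCtrl libraries, ERBB3 was lowest in shCtrl+shp300/CBP cells at 17.2–18.7 FPKM, and EGFR stayed within 4.11–7.45 FPKM over the knockdown series.

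ERBB2 (chr17:39688094–39728658, plus strand, 27 exons in its canonical transcript, GRCh38.p14) showed the clearest receptor change. It measured 107 and 104 FPKM in shHOXB13 cells, against 41.2 and 45.03 FPKM in shCtrl cells. The groups did not overlap, and the log2 change was 1.29 ± 0.16 (SE, limma adjusted p = 0.000103). In the other series it measured 129, 150 and 141 FPKM in shHOXB13 DMSO cells, against 52.0, 53.7 and 53.4 FPKM in shCtrl DMSO cells. Every shHOXB13 DMSO library was again above every shCtrl DMSO library, with a log2 change of 1.39 ± 0.08 (limma adjusted p = 4.56e-08). The increase was above the shift of all genes under both scalings and passed with any single library left out, with log2 changes of 1.23–1.36 in the knockdown series and 1.34–1.45 in the DMSO arms.

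The reads were counted without strand, so reads from overlapping genes cannot be assigned with certainty. MIEN1 overlaps the end of ERBB2, and PGAP3 starts 37 bases from its start. In shHOXB13 cells against shCtrl cells, MIEN1 averaged 116 and 90.9 FPKM and PGAP3 averaged 13.8 and 12.3 FPKM. Neither passed, with log2 changes of 0.35 ± 0.15 (limma adjusted p = 0.0878) and 0.17 ± 0.14 (limma adjusted p = 0.38), both smaller in size than the change of ERBB2. In shHOXB13 DMSO cells against shCtrl DMSO cells the log2 changes were 0.53 ± 0.08 for MIEN1 (limma adjusted p = 9.77e-05) and 0.41 ± 0.09 for PGAP3 (limma adjusted p = 0.00216), both under 1.5-fold. The neighbours passed elsewhere: MIEN1 was higher in shHOXB13+shp300/CBP, shHOXB13+shp300 and shHOXB13+shCBP cells than in their matched shCtrl arms (0.83, 0.81 and 0.88, limma adjusted p = 0.00089, 0.00129 and 0.000882). PGAP3 was higher in shHOXB13 CCS1477 than in shCtrl CCS1477 cells (0.79, limma adjusted p = 2.87e-05) and lower in shHOXB13+shp300/CBP than in shCtrl+shp300/CBP cells (−0.75, limma adjusted p = 0.0011).

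ERBB2 moved in opposite directions in the shHOXB13 and shCtrl backgrounds when both p300 and CBP hairpins were added. It was 57.8 and 82.5 FPKM in shHOXB13+shp300/CBP cells, below both shHOXB13 libraries (log2 change −0.61 ± 0.16, limma adjusted p = 0.0162). It was 66.0 and 65.6 FPKM in shCtrl+shp300/CBP cells, above both shCtrl libraries (log2 change 0.61 ± 0.16, limma adjusted p = 0.0227). PGAP3 also rose in shCtrl+shp300/CBP cells, to 20.6 FPKM against 12.3 FPKM in shCtrl cells (0.74 ± 0.14, limma adjusted p = 0.00407). The test of the difference between these effects gave −1.22 ± 0.23 on the log2 scale (limma adjusted p = 0.00957), and ERBB2 and HBEGF were the 2 of 7 members that passed it, where 5.59% of all genes were lower and 2.53% higher. The same test passed for 0 of 7 members with shp300 alone, where 0.854% of all genes passed, and for 0 of 7 with shCBP alone, where 0.605% did. PGAP3 passed the same test in the same direction (−0.92 ± 0.20, limma adjusted p = 0.0171), with its own fall in the shHOXB13 background not passing (−0.18 ± 0.14, limma adjusted p = 0.389), so the result is not particular to ERBB2 at this locus. For ERBB2 it held with any single library left out, from −1.48 to −0.97. Each of the separate effects was less firm. The fall in shHOXB13 cells was −0.38 by limma-voom on the recovered reads (adjusted p = 0.0812). It also lost the call with median-of-ratios scaling and with only the groups compared. Leaving out 1 library gave −0.87 to −0.36, the latter without shHOXB13+shp300/CBP library 1, and the fall missed the threshold in 3 of these 4 fits. The increase in shCtrl cells missed it with any of its 4 libraries left out (0.55–0.67).

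Between the arms labelled shp300/CBP, ERBB2 averaged 70.1 ± 17.5 FPKM in shHOXB13+shp300/CBP cells and 65.8 ± 0.28 FPKM in shCtrl+shp300/CBP cells (SD, n = 2 each). These groups overlapped, and the log2 change was 0.07 ± 0.16 (limma adjusted p = 0.768). With a single second hairpin, ERBB2 averaged 83.5 ± 10.1 FPKM in shHOXB13+shp300 cells and 57.7 ± 8.96 FPKM in shCtrl+shp300 cells, a log2 change of 0.54 ± 0.16 (limma adjusted p = 0.02), which is under 1.5-fold. It averaged 102 ± 0.022 FPKM in shHOXB13+shCBP cells and 60.9 ± 2.44 FPKM in shCtrl+shCBP cells, where it passed (0.75 ± 0.16, limma adjusted p = 0.00365).

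ERBB2 was not lower with CCS1477. It measured 155, 171 and 161 FPKM in shHOXB13 CCS1477 cells, all above the 3 shHOXB13 DMSO libraries, with a log2 change of 0.22 ± 0.08 (limma adjusted p = 0.0462) that is under 1.5-fold and close to the median of all genes, 0.2. It measured 56.4, 51.7 and 61.0 FPKM in shCtrl CCS1477 cells, overlapping shCtrl DMSO cells (0.08 ± 0.08, limma adjusted p = 0.485). Between the treated lines, shHOXB13 CCS1477 over shCtrl CCS1477, the log2 change was 1.53 ± 0.08 (limma adjusted p = 5.43e-08). The shp300/CBP hairpins and the inhibitor were run in separate series and were not tested against each other.

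ERBB3 (chr12:56080108–56103505, plus strand, 28 exons), the partner that recruits PI3K, did not pass with HOXB13 knockdown alone in either series. It was 40.0 and 38.8 FPKM in shHOXB13 cells, against 29.1 and 30.5 FPKM in shCtrl cells, and the log2 change of 0.40 ± 0.10 (limma adjusted p = 0.0083) was under 1.5-fold. With median-of-ratios scaling it was 0.81 and passed. In shHOXB13 DMSO cells ERBB3 was 53.9, 61.5 and 62.0 FPKM, overlapping the 50.1, 58.7 and 55.2 FPKM of shCtrl DMSO cells (0.11 ± 0.09, limma adjusted p = 0.325).

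In the control background ERBB3 fell with shp300/CBP and with CCS1477. It was 18.7 and 17.2 FPKM in shCtrl+shp300/CBP cells, below both shCtrl libraries (log2 change −0.73 ± 0.10, limma adjusted p = 0.000684). It was 30.9, 34.8 and 38.9 FPKM in shCtrl CCS1477 cells, below all 3 shCtrl DMSO libraries (−0.65 ± 0.09, limma adjusted p = 0.000476). Without shCtrl CCS1477 library 1 the second value was −0.57 (adjusted p = 0.00124), just under 1.5-fold. In the HOXB13 knockdown background, ERBB3 was 27.9 and 27.1 FPKM in shHOXB13+shp300/CBP cells (−0.52 ± 0.10 against shHOXB13, limma adjusted p = 0.0035, under 1.5-fold) and 50.8, 54.4 and 53.6 FPKM in shHOXB13 CCS1477 cells (−0.16 ± 0.09 against shHOXB13 DMSO, limma adjusted p = 0.21).

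The size of the CCS1477 effect on ERBB3 differed between the backgrounds by 0.49 ± 0.13 on the log2 scale (limma adjusted p = 0.0306), which is under 1.5-fold. None of the 7 members passed that test at 1.5-fold, where 9.17% of all genes did. ERBB3 was thus higher in shHOXB13 CCS1477 cells than in shCtrl CCS1477 cells (0.61 ± 0.09, limma adjusted p = 0.0003; 0.52 and under 1.5-fold without shCtrl CCS1477 library 1). It was also higher in shHOXB13+shp300/CBP cells than in shCtrl+shp300/CBP cells (0.61 ± 0.10, limma adjusted p = 0.000515) and in shHOXB13+shp300 than in shCtrl+shp300 cells (0.66 ± 0.10, limma adjusted p = 0.000354). These came under 1.5-fold without shCtrl+shp300/CBP library 2 (0.55) and without shHOXB13+shp300 library 1 (0.58).

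EGFR (chr7:55019017–55211628, plus strand, 28 exons), which binds EGF and TGF-alpha, passed in none of the 18 comparisons. It averaged 5.57 ± 0.26 FPKM in shHOXB13 cells and 4.93 ± 0.17 FPKM in shCtrl cells (SD, n = 2 each), with a log2 change of 0.17 ± 0.24 (limma adjusted p = 0.61). In the DMSO arms it averaged 14.4 ± 1.31 FPKM in shHOXB13 cells and 12.3 ± 0.64 FPKM in shCtrl cells (SD, n = 3 each), with groups that overlap and a log2 change of 0.23 ± 0.09 (limma adjusted p = 0.052). The lowest adjusted p in the knockdown series was 0.0996, for shHOXB13+shCBP over shCtrl+shCBP cells (−0.53 ± 0.24). A missed threshold does not show that EGFR was unaffected.

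With HOXB13 knockdown the receptor mix changed through ERBB2, the 1 receptor that passed. Of the summed EGFR, ERBB2 and ERBB3 FPKM, ERBB2 made up 70.0–70.3% in shHOXB13 cells and 54.8–55.9% in shCtrl cells. In the DMSO arms its share was 64.6–66.2% in shHOXB13 cells and 42.8–45.7% in shCtrl cells, where ERBB3 was about as abundant, with an ERBB2 to ERBB3 ratio of 0.91–1.04. The ratio was 3.01–3.15 in shHOXB13 CCS1477 cells and 1.49–1.82 in shCtrl CCS1477 cells, and in that control line ERBB3, not ERBB2, passed with CCS1477. In shCtrl+shp300/CBP cells it was 3.52–3.82, against 1.41–1.48 in shCtrl cells, since ERBB2 was higher and ERBB3 lower there.

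**Figure D2:**
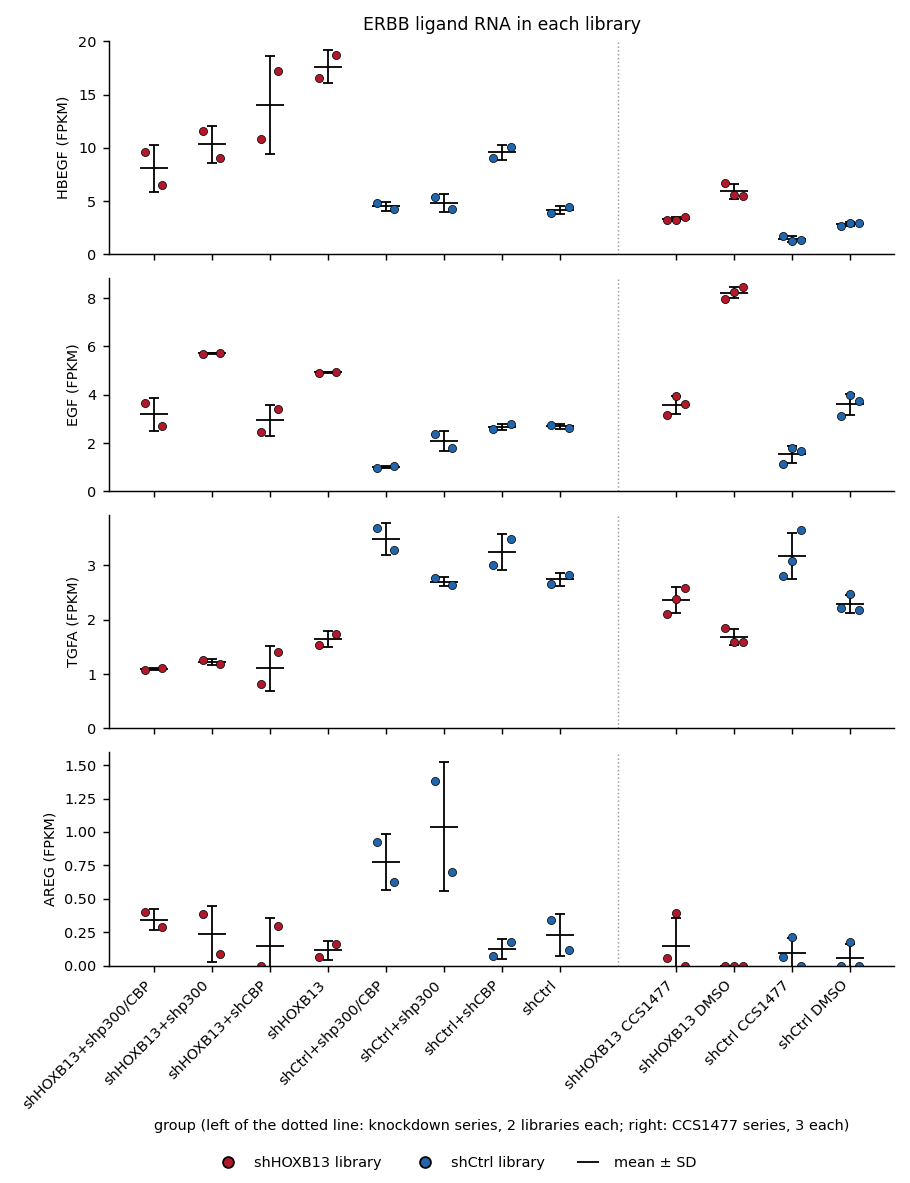
FPKM (vertical axes, linear, from 0) of HBEGF, EGF, TGFA and AREG in every library, drawn as for the receptors. HBEGF and EGF were higher in shHOXB13 cells than in shCtrl cells in both series, TGFA was lower, and AREG did not exceed 1.38 FPKM.

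The upstream sequences of HBEGF and EGF are shown because these ligands rose together with HOXB13 knockdown in both series and fell together with CCS1477. Each is the 250 bases before the gene's RefSeq start on its own strand, in GRCh38.p14: chr5:140346604-140346853 (minus strand) for HBEGF and chr4:109912633-109912882 (plus strand) for EGF. Capitals mark GGGCGG, the GC box bound by SP1-type factors, and TGANTCA, the AP-1 element, found on either strand and therefore also shown as CCGCCC. No annotated exon lies in these windows; those of ERBB2 and TGFA hold exons and are not shown. Of the 9 members, 8 matched the RefSeq table, all but ERBB3.
HBEGF: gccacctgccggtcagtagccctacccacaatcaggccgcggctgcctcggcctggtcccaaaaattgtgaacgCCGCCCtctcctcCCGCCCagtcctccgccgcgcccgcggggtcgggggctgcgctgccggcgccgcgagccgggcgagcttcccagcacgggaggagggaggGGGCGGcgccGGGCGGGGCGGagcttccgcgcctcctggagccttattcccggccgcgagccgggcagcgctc
EGF: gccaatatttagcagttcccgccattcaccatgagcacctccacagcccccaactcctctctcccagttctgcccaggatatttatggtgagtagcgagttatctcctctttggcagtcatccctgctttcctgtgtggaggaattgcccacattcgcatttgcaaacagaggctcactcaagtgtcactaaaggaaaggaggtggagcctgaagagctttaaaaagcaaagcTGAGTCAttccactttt

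The 2 windows have little in common. The HBEGF window has 33 CpG dinucleotides and 76.4% GC and holds GGGCGG 5 times, the last 2 overlapping, a motif found in 42.6% of 35116 windows of the same length. The EGF window has 3 CpG and 48.8% GC, against medians of 11 and 58.0% over all windows, and holds TGANTCA 11 to 17 bases before the start, a motif found in 6.57% of them. The HOX-type motif CCAATAAA (0.863% of windows), the sterol element TCACNCCAC (0.883%) and the TATA motif TATAAA (10.7%) were searched on both strands and were in neither window. No match says only that these letters are absent from these 250 bases.

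HBEGF (chr5:140332843–140346603, minus strand, 6 exons), a heparin-binding ligand of EGFR and ERBB4, had the largest change of the members with HOXB13 knockdown in the knockdown series. It was 16.5 and 18.7 FPKM in shHOXB13 cells, against 3.93 and 4.45 FPKM in shCtrl cells (log2 change 2.05 ± 0.24, limma adjusted p = 6.04e-05). It was 6.73, 5.56 and 5.49 FPKM in shHOXB13 DMSO cells, against 2.67, 2.95 and 2.98 FPKM in shCtrl DMSO cells (1.02 ± 0.14, limma adjusted p = 5.66e-05). Groups were separate in both series, and the calls held with any single library left out. The closest annotated genes, PFDN1 (29742 bases away) and SLC4A9 (13591 bases), did not pass with HOXB13 knockdown in either series.

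HBEGF was lower in the arm labelled shHOXB13+shp300/CBP. It was 9.66 and 6.48 FPKM in shHOXB13+shp300/CBP cells, below both shHOXB13 libraries (−1.14 ± 0.24, limma adjusted p = 0.00477), and this passed with any single library left out. In the control background it was 4.83 and 4.23 FPKM in shCtrl+shp300/CBP cells, overlapping shCtrl cells (0.11 ± 0.24, limma adjusted p = 0.824). The difference between these effects was −1.25 ± 0.34 (limma adjusted p = 0.0426), but it held only without shHOXB13+shp300/CBP library 1 (−1.53, adjusted p = 0.0251) and lost the call when any of the other 7 libraries was left out (−1.34 to −0.97, adjusted p up to 0.146). HBEGF remained higher in shHOXB13+shp300/CBP than in shCtrl+shp300/CBP cells (0.80 ± 0.24, limma adjusted p = 0.0176), a call lost without shHOXB13+shp300/CBP library 1 (0.51, adjusted p = 0.143) or shCtrl+shp300/CBP library 2 (0.70, adjusted p = 0.0977).

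With a single second hairpin, HBEGF passed in 1 arm of the control background. It was 9.07 and 10.1 FPKM in shCtrl+shCBP cells, above both shCtrl libraries (1.17 ± 0.24, limma adjusted p = 0.0107), and it was the 1 member of 7 to pass there, where 3.39% of all genes were higher and 6.67% lower (with median-of-ratios scaling 965 and 776 genes, instead of 600 and 1179). Leaving out 1 library gave log2 changes of 1.08–1.26 and ended the call except without shCtrl library 2 (adjusted p up to 0.0933). In shCtrl+shp300 cells, where 3.09% of all genes passed and no member did, it was 5.42 and 4.24 FPKM, and the 2 arms were not tested against each other. With HOXB13 knockdown it was 11.6 and 9.09 FPKM in shHOXB13+shp300 cells (−0.77 ± 0.24 against shHOXB13, limma adjusted p = 0.0758) and 10.8 and 17.3 FPKM in shHOXB13+shCBP cells (−0.36 ± 0.24, limma adjusted p = 0.441). Neither passed, and no other member passed in these arms, where 6.23% and 1.47% of all genes did.

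CCS1477 lowered HBEGF in both backgrounds. It was 3.23, 3.23 and 3.54 FPKM in shHOXB13 CCS1477 cells, below all 3 shHOXB13 DMSO libraries (−0.81 ± 0.14, limma adjusted p = 0.000733). It was 1.75, 1.24 and 1.38 FPKM in shCtrl CCS1477 cells, below all 3 shCtrl DMSO libraries (−0.94 ± 0.14, limma adjusted p = 0.000507). The effects differed by 0.14 ± 0.19 (limma adjusted p = 0.699), and HBEGF was still higher in shHOXB13 CCS1477 cells than in shCtrl CCS1477 cells (1.15 ± 0.14, limma adjusted p = 4.27e-05).

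EGF (chr4:109912883–110013766, plus strand, 24 exons), the prototype ligand of EGFR, followed HBEGF in the main comparisons. It was 4.89 and 4.95 FPKM in shHOXB13 cells, against 2.76 and 2.62 FPKM in shCtrl cells (0.85 ± 0.20, limma adjusted p = 0.00551). It was 7.98, 8.27 and 8.45 FPKM in shHOXB13 DMSO cells, against 3.12, 3.97 and 3.74 FPKM in shCtrl DMSO cells (1.17 ± 0.16, limma adjusted p = 6.59e-05). The groups did not overlap in either series, and the calls held with any single library left out.

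CCS1477 lowered EGF to 3.18, 3.95 and 3.62 FPKM in shHOXB13 cells (−1.18 ± 0.16, limma adjusted p = 0.000156) and to 1.13, 1.78 and 1.68 FPKM in shCtrl cells (−1.20 ± 0.16, limma adjusted p = 0.000292). All treated libraries were below all DMSO libraries of the same line. The effects differed by 0.02 ± 0.23 (limma adjusted p = 0.967). HBEGF and EGF were the 2 of 7 members lower in shHOXB13 CCS1477 cells, where 5.31% of all genes were lower and 14.9% higher, and with ERBB3 the 3 of 7 lower in shCtrl CCS1477 cells, where 5.56% were lower and 6.58% higher. With median-of-ratios scaling the calls over all genes were 1362 higher and 1415 lower in shHOXB13 CCS1477 cells, instead of 2363 and 844, and 790 and 1044 in shCtrl CCS1477 cells, instead of 1047 and 884.

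EGF was also lower in the arms labelled shp300/CBP. It was 0.97 and 1.05 FPKM in shCtrl+shp300/CBP cells (−1.33 ± 0.20 against shCtrl, limma adjusted p = 0.00105), the lowest group for EGF in the knockdown series, and this passed with any single library left out. It was 3.67 and 2.72 FPKM in shHOXB13+shp300/CBP cells (−0.62 ± 0.20 against shHOXB13, limma adjusted p = 0.0371). That call was lost by limma-voom on the recovered reads (−0.37, adjusted p = 0.0698) and without shHOXB13+shp300/CBP library 2 (−0.42, adjusted p = 0.187) or either shHOXB13 library (adjusted p = 0.132 each). In all, 3 of 7 members passed as lower in shHOXB13+shp300/CBP cells against shHOXB13 cells (ERBB2, HBEGF and EGF), where 13.3% of all genes were lower and 9.06% higher, and 2 lower (ERBB3 and EGF) and 1 higher (ERBB2) in shCtrl+shp300/CBP cells, where 7.89% were lower and 7.6% higher.

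EGF was higher with HOXB13 knockdown in the shp300/CBP arms, at 1.55 ± 0.20 (limma adjusted p = 9.11e-05), and in the shp300 arms, at 1.42 ± 0.20 (limma adjusted p = 0.000199), where it was 5.70 and 5.72 FPKM in shHOXB13+shp300 cells and 2.39 and 1.79 FPKM in shCtrl+shp300 cells. In the shCBP arms it was 2.47 and 3.40 FPKM in shHOXB13+shCBP cells and 2.596 and 2.77 FPKM in shCtrl+shCBP cells, which overlap (0.11 ± 0.20, limma adjusted p = 0.709). ELOVL6, a fatty acid elongase gene 32080 bases from EGF, averaged 9.76 FPKM in shHOXB13 cells and 5.67 FPKM in shCtrl cells (0.78 ± 0.16, limma adjusted p = 0.00293), but 12.9 FPKM in shCtrl+shp300/CBP cells (1.17 ± 0.16 against shCtrl, limma adjusted p = 0.000701), the opposite direction to EGF there.

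TGFA (chr2:70447284–70553826, minus strand, 6 exons), another EGFR ligand, ran against HBEGF and EGF. It was 1.54 and 1.74 FPKM in shHOXB13 cells, against 2.66 and 2.82 FPKM in shCtrl cells (−0.71 ± 0.22, limma adjusted p = 0.0221). This call did not survive leaving out any of the 4 libraries (adjusted p 0.0588–0.114) or median-of-ratios scaling (−0.32, adjusted p = 0.259), and its direction was the same in all of these. In the DMSO arms it was 1.85, 1.59 and 1.59 FPKM in shHOXB13 cells, below the 2.21, 2.48 and 2.18 FPKM of shCtrl cells, a log2 change of −0.43 ± 0.14 (limma adjusted p = 0.0183) that is under 1.5-fold.

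TGFA also fell with HOXB13 knockdown in each arm with a p300 or CBP hairpin. TGFA was 1.07 and 1.10 FPKM in shHOXB13+shp300/CBP cells, against 3.69 and 3.28 FPKM in shCtrl+shp300/CBP cells (−1.59 ± 0.22, limma adjusted p = 0.000138). It was 1.26 and 1.18 FPKM in shHOXB13+shp300 cells, against 2.76 and 2.64 FPKM in shCtrl+shp300 cells (−1.08 ± 0.22, limma adjusted p = 0.00199). It was 0.82 and 1.40 FPKM in shHOXB13+shCBP cells, against 3.00 and 3.48 FPKM in shCtrl+shCBP cells (−1.51 ± 0.22, limma adjusted p = 0.00027). None of the 3 tests of a difference from the effect without a second hairpin passed (limma adjusted p 0.105–0.664), so a dependence of the fall on p300 or CBP was not shown. With CCS1477, TGFA was 2.11, 2.39 and 2.58 FPKM in shHOXB13 CCS1477 cells (0.47 ± 0.14 against shHOXB13 DMSO, limma adjusted p = 0.0171) and 2.81, 3.08 and 3.64 FPKM in shCtrl CCS1477 cells (0.45 ± 0.14 against shCtrl DMSO, limma adjusted p = 0.0306). Both are under 1.5-fold, and the treated libraries were above the DMSO libraries in each line.

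AREG (chr4:74445136–74455005, plus strand, 6 exons), which encodes amphiregulin, was too low for firm comparisons. Its highest values were 1.38 and 0.70 FPKM in shCtrl+shp300 cells and 0.92 and 0.62 FPKM in shCtrl+shp300/CBP cells, against 0.34 and 0.12 FPKM in shCtrl cells. The groups did not overlap, but neither difference passed (1.82 ± 0.66 and 1.48 ± 0.66, limma adjusted p = 0.181 and 0.153), and the reads per group were 28, 28 and 8. By limma-voom on the recovered reads both passed, at 2.20 and 1.82 (adjusted p = 0.0488 and 0.0462). AREG passed once in the main test, as lower in shHOXB13+shp300 cells (0.38 and 0.09 FPKM) than in shCtrl+shp300 cells (−1.85 ± 0.66, limma adjusted p = 0.0413). Without a filter on low values that adjusted p was 0.0600, and without shHOXB13+shp300 library 2 it was 0.28. Its neighbour EREG (chr4:74365145–74388749) stayed at 0 throughout.

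Set against the matched shCtrl arm, shHOXB13+shp300/CBP cells thus had 3 members higher (ERBB3, HBEGF and EGF) and 1 lower (TGFA) of 7, where 7.09% of all genes were higher and 30.8% lower. shHOXB13+shp300 cells had the same 3 higher and 2 lower (AREG and TGFA), where 9.45% were higher and 27.0% lower. shHOXB13+shCBP cells had ERBB2 higher and TGFA lower, where 6.83% and 25.5% were, and shHOXB13 CCS1477 cells had 4 of 7 higher (ERBB2, ERBB3, HBEGF and EGF) and none lower, where 6.15% were higher and 18.0% lower. With median-of-ratios scaling the calls over all genes were 2778 higher and 2438 lower for shHOXB13+shp300/CBP (instead of 1253 and 5448), 2807 and 2413 for shHOXB13+shp300 (1671 and 4774), 2448 and 2219 for shHOXB13+shCBP (1208 and 4505) and 1672 and 1706 for shHOXB13 CCS1477 (978 and 2859).

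**Figure D3:**
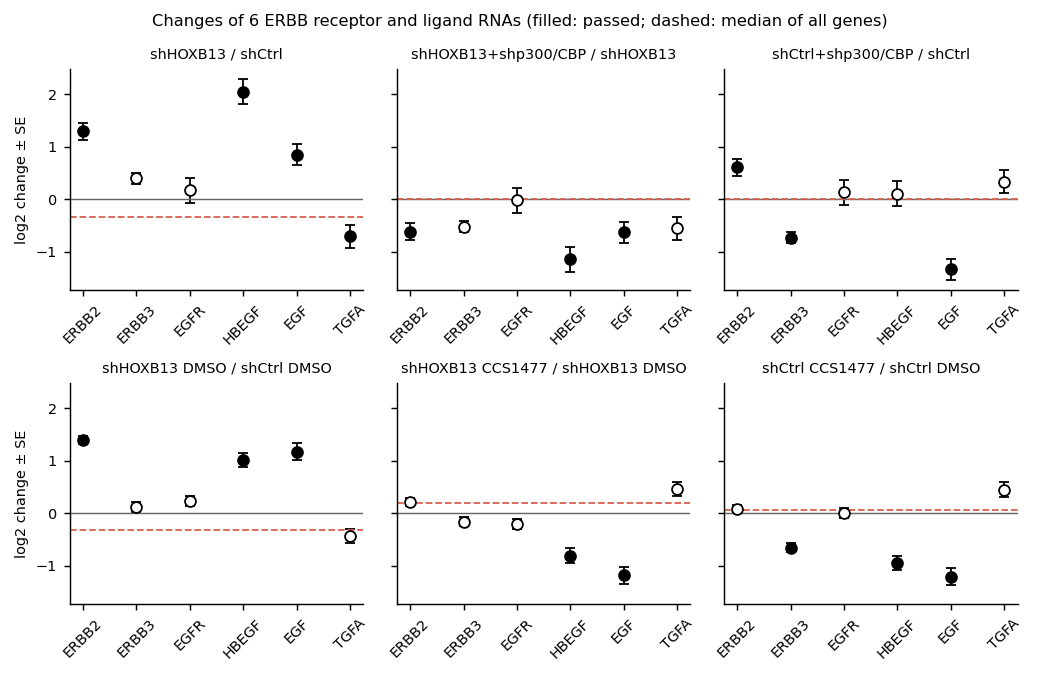
Log2 change on the log2(FPKM + 0.1) scale ± SE (vertical axis) of 6 members (horizontal axis) in 6 comparisons, with the knockdown series above and the CCS1477 series below; filled points passed, open points did not, and the dashed line is the median of all genes. ERBB2, HBEGF and EGF were higher with HOXB13 knockdown in both series, while CCS1477 lowered HBEGF and EGF and left ERBB2 at 0.22 in shHOXB13 cells and 0.08 in shCtrl cells.

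Ligand RNA was summed over HBEGF, EGF, TGFA and AREG, the 4 member ligands with any reads, and ligands outside the members were left out. Among those left out, BTC averaged 1.06 FPKM in shCtrl CCS1477 cells and 1.109 FPKM in shHOXB13 CCS1477 cells. The summed RNA of the 4 member ligands was 23.0–25.6 FPKM in shHOXB13 cells and 9.70–10.0 FPKM in shCtrl cells. HBEGF made up 71.8–73.2% of it in shHOXB13 cells and 40.6–44.5% in shCtrl cells, and TGFA 6.7–6.8% and 27.4–28.2%. In the DMSO arms the sum was 15.4–16.6 FPKM in shHOXB13 cells and 8.004–9.57 FPKM in shCtrl cells. There EGF was the largest share, at 48.2–54.4% in shHOXB13 cells and 39.0–42.0% in shCtrl cells. With CCS1477 the sum was 8.57–9.95 FPKM in shHOXB13 CCS1477 cells, and TGFA took 48.8–54.3% of it in shCtrl CCS1477 cells against 24.5–27.6% in shCtrl DMSO cells.

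**Figure D4:**
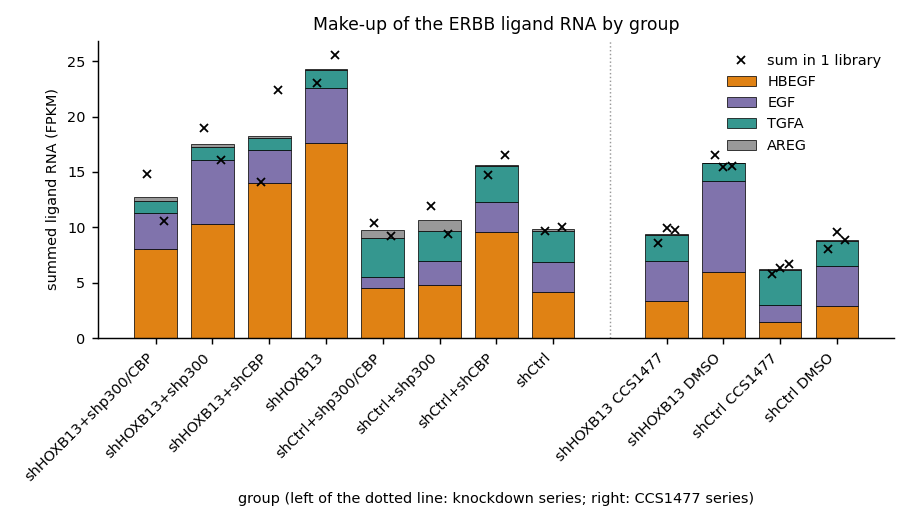
Stacked bars of the group mean FPKM of HBEGF, EGF, TGFA and AREG (vertical axis, linear, from 0) by group (horizontal axis); crosses are the summed FPKM of single libraries. The sum was highest in shHOXB13 cells at 23.0–25.6 FPKM and lowest in shCtrl CCS1477 cells at 5.75–6.71 FPKM.

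Other genes of the pathway were counted from fixed lists, to be read against all genes, of which 7.15% were higher and 26.8% lower in shHOXB13 cells against shCtrl cells, and 8.58% and 30.6% in shHOXB13 DMSO cells against shCtrl DMSO cells. With median-of-ratios scaling these shares were 13.7% and 12.4%, and 16.9% and 18.0%. Of the 6 other ERBB ligands, 3 were tested. Of these, 0 passed in shHOXB13 cells, 2 were lower in shHOXB13 DMSO cells, and 2 were higher in shHOXB13 CCS1477 cells against shHOXB13 DMSO cells, where 14.9% of all genes were. BTC (betacellulin) was 0.07, 0.07 and 0.07 FPKM in shHOXB13 DMSO cells, against 0.75, 0.17 and 0.34 FPKM in shCtrl DMSO cells (−1.46 ± 0.36, limma adjusted p = 0.00422), and it was 1.36, 0.86 and 1.11 FPKM in shHOXB13 CCS1477 cells (2.82 ± 0.36 against shHOXB13 DMSO, limma adjusted p = 9.5e-05). In that series it ran against HBEGF and EGF, with shHOXB13 DMSO values under the 0.1 FPKM used to filter low genes. In the knockdown series BTC averaged 0.14 FPKM in shHOXB13 cells and 0.28 FPKM in shCtrl cells and did not pass. NRG4, a neuregulin, was 1.29 and 1.74 FPKM in shHOXB13+shp300/CBP cells, against 0.70 and 0.53 FPKM in shHOXB13 cells (1.17 ± 0.30, limma adjusted p = 0.0138).

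Of 7 tested sheddases and iRhoms, the proteases and chaperones that release ligand precursors, 1 was higher and 2 were lower in shHOXB13 cells against shCtrl cells (list median −0.33, also the median of all genes). ADAM15 was the higher one, at 323 and 323 FPKM in shHOXB13 cells against 122 and 170 FPKM in shCtrl cells (1.16 ± 0.17, limma adjusted p = 0.000239). ADAM17, the main sheddase of several EGFR ligands, averaged 3.42 FPKM in shHOXB13 cells and 5.99 FPKM in shCtrl cells (−0.80 ± 0.25, limma adjusted p = 0.0226), and ADAM8 also fell; with median-of-ratios scaling neither passed. In shHOXB13 DMSO cells 2 of the list were higher and 1 lower, where 8.58% and 30.6% of all genes were. With median-of-ratios scaling the list had 2 higher and 0 lower in shHOXB13 cells, and 3 higher and 0 lower in shHOXB13 DMSO cells. ADAM10 was 94.7, 96.2 and 95.3 FPKM in shHOXB13 DMSO cells against 49.2, 55.5 and 53.5 FPKM in shCtrl DMSO cells (0.86 ± 0.10, limma adjusted p = 2.06e-05), and 30.5 and 27.6 FPKM in shHOXB13+shp300/CBP cells against 60.0 and 59.0 FPKM in shHOXB13 cells (−1.03 ± 0.16, limma adjusted p = 0.000959). With median-of-ratios scaling ADAM10 did not pass in shHOXB13 CCS1477 cells against shHOXB13 DMSO cells (0.10, limma adjusted p = 0.466).

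Of the genes that restrain ERBB receptors, how many passed as lower with HOXB13 knockdown depended on the scaling. Of 18 tested, as deposited, 0 were higher and 12 lower in shHOXB13 cells (median −0.72, against −0.33 over all genes), and 1 was higher and 11 lower in shHOXB13 DMSO cells (median −0.72, against −0.33). The shares of all genes that were lower were 26.8% and 30.6%. With median-of-ratios scaling these counts were 2 higher and 6 lower in the knockdown series, where 12.4% of all genes were lower, and 2 higher and 8 lower in the DMSO arms, where 18.0% were. LRIG1, a membrane protein that promotes degradation of ERBB receptors, was 9.53 and 9.35 FPKM in shHOXB13 cells against 26.3 and 26.4 FPKM in shCtrl cells (−1.47 ± 0.16, limma adjusted p = 4.35e-05), and 14.7, 17.0 and 17.2 FPKM in shHOXB13 DMSO cells against 51.8, 57.2 and 55.6 FPKM in shCtrl DMSO cells. It fell further to 10.3, 10.8 and 10.3 FPKM in shHOXB13 CCS1477 cells (−0.63 ± 0.09, limma adjusted p = 0.000245) and to 4.58 and 4.73 FPKM in shHOXB13+shp300/CBP cells (−1.01 ± 0.16, limma adjusted p = 0.00123). SPRY1, an inhibitor of RAS-ERK signalling, was 0.55 and 0.52 FPKM in shHOXB13 cells against 2.10 and 2.17 FPKM in shCtrl cells (−1.82 ± 0.36, limma adjusted p = 0.00184). SPRED1, of the same inhibitor family, was 0.39, 0.32 and 0.42 FPKM in shHOXB13 DMSO cells against 2.13, 1.86 and 2.05 FPKM in shCtrl DMSO cells (−2.15 ± 0.15, limma adjusted p = 2.38e-07), and 1.19, 1.03 and 1.33 FPKM in shHOXB13 CCS1477 cells (1.43 ± 0.15, limma adjusted p = 2.23e-05). With median-of-ratios scaling SPRED1 did not pass in shHOXB13+shp300/CBP cells against shHOXB13 cells (0.54, limma adjusted p = 0.139).

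Among 30 tested adaptors and kinases of the cascade, 2 were higher and 9 lower in shHOXB13 cells (median −0.43), and 3 were higher and 7 lower in shHOXB13 DMSO cells (median −0.26). These counts are near the shares of all genes, 7.15% higher and 26.8% lower, and 8.58% and 30.6%. With median-of-ratios scaling they were 5 higher and 2 lower, and 7 higher and 1 lower. SHC1, the adaptor that links receptors to RAS, was 89.6 and 78.2 FPKM in shHOXB13 cells against 33.0 and 32.4 FPKM in shCtrl cells (1.35 ± 0.21, limma adjusted p = 0.000449). It was 35.0, 36.0 and 33.3 FPKM in shHOXB13 CCS1477 cells against 84.2, 79.2 and 75.3 FPKM in shHOXB13 DMSO cells (−1.19 ± 0.07, limma adjusted p = 3.17e-07). With median-of-ratios scaling SHC1 was under 1.5-fold in shHOXB13+shp300/CBP cells against shHOXB13 cells (−0.48, limma adjusted p = 0.0468). PIK3R1, a regulatory subunit of PI3K, was 2.01 and 1.69 FPKM in shHOXB13 cells against 20.6 and 16.1 FPKM in shCtrl cells (−3.23 ± 0.18, limma adjusted p = 2.9e-07), the largest fall of the list.

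Genes known as ERK outputs went both ways, with 4 higher and 3 lower of 17 tested in shHOXB13 cells and 3 higher and 4 lower of 16 in shHOXB13 DMSO cells, where 7.15% and 8.58% of all genes were higher and 26.8% and 30.6% lower. With median-of-ratios scaling they were 6 higher and 2 lower, and 5 higher and 4 lower. SPRY2, SPRY4, SPRED1 and SPRED2 are on this list and also among the genes counted above as restraining ERBB receptors, so these lists are not independent. EGR1, an immediate-early gene, averaged 1.90 FPKM in shHOXB13 cells and 0.28 FPKM in shCtrl cells (2.42 ± 0.33, limma adjusted p = 0.000186). In the DMSO arms it averaged 0.38 FPKM in shHOXB13 cells and 0.28 FPKM in shCtrl cells, with groups that overlap, and did not pass (0.29 ± 0.27, limma adjusted p = 0.378). MYC averaged 26.2 FPKM in shHOXB13 cells and 67.2 FPKM in shCtrl cells (−1.36 ± 0.21, limma adjusted p = 0.000434). Of 14 tested receptor tyrosine kinases outside the family, 1 was higher and 2 were lower in shHOXB13 cells: DDR1, a collagen receptor, averaged 14.9 FPKM in shHOXB13 cells and 6.30 FPKM in shCtrl cells (1.23 ± 0.16, limma adjusted p = 0.00014), and IGF1R averaged 4.22 and 11.02 FPKM in the same groups (−1.36 ± 0.13, limma adjusted p = 1.11e-05). In shHOXB13 DMSO cells 2 were higher and 3 lower. With median-of-ratios scaling that list had 6 higher and 2 lower in shHOXB13 cells, where 13.7% and 12.4% of all genes were. It had 6 higher and 1 lower in shHOXB13 DMSO cells, where 16.9% and 18.0% were.

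As a description with no test, the members were compared over the 28 libraries after removing each series' mean, on points that share groups, depth and the composition of each library. ERBB3 and EGF had the highest Pearson correlation of the pairs (0.92), followed by HBEGF and EGF (0.81) and ERBB3 and HBEGF (0.77). TGFA was negatively correlated with EGF (−0.65) and HBEGF (−0.63), and EGFR was close to 0 with ERBB2 (0.04). Of 11700 genes compared, the most alike to ERBB2 were ABHD2 (0.96), QSOX1 (0.94) and ITGA5 (0.94). For HBEGF they were BAMBI (0.93), FLVCR2 (0.93) and AGR2 (0.92), for EGF they were AHNAK (0.93), STX3 (0.93) and ERBB3 (0.92), and for TGFA they were CTNNB1, VPS35 and ZDHHC2 (each 0.96). For ERBB3, AHNAK (0.91) and SLC44A4 (0.90) followed EGF, and for EGFR no gene exceeded the 0.67 of RNF103.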

How the data were processed

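RNA was sequenced from polyA libraries of LNCaP cells, 16 for the knockdowns and 12 for CCS1477, described in the study as biological duplicates and triplicates. The authors mapped reads with STAR, given as 2.6.0 in the processing notes of the submitters, to GRCh38, counted reads per gene without strand and made the deposited FPKM values with a script that divides by gene length and mapped reads. The study tested counts pairwise, but the files hold FPKM, so limma was used in place of a count model. Of 26475 listed genes, 32 have no value.

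Genes with at least 0.1 FPKM in 2 (knockdown) or 3 (CCS1477) libraries were tested on log2(FPKM + 0.1) with limma 3.58.1 under R 4.3.3. The prior variance followed mean expression, and p values were adjusted by Benjamini-Hochberg over all genes of a comparison. Fold changes on that scale understate changes of low genes. Tables and figures were made with Python 3.11.15, and the fit was tested on simulated data. Whole reads were recovered from the FPKM values by using 36 to 109 microRNA entries per library to find the depth. Each gene's length was then chosen so that its values above 0 fell within 0.05 of a whole read. Such a length was found for all 22423 genes with a value above 0. That all their values (100.0% of 475360) lay within 0.05 followed from this choice and is no check of the reads. Those reads served in limma-voom as an alternative. Intervals and floors cover counting error only.

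The members and gene lists were chosen with earlier results of these data known. The text names all 9 members and, from each list, up to 2 genes per direction with the largest change among those that passed in 4 main comparisons and reached 1 FPKM in a group. The named genes were also given in other comparisons, and neighbouring genes by position. Some genes that the rule names are not reported here. Genes most alike to a member were the 3 with the highest Pearson correlation. Alternatives were other pseudocounts (0.01, 1), no filter or a filter at 1 FPKM, median-of-ratios scaling, a replicate block, no fold threshold, only the groups compared, each library left out and, chosen after seeing the data, both shCtrl libraries numbered 1 of the CCS1477 series left out. Promoter windows and genes' positions are RefSeq's, in GRCh38.p14. P-values measure the spread between these libraries.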

Additional observations from a re-analysis of the deposited data

Results flagged for a closer look

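The effect of the shp300/CBP hairpins on ERBB2 differed between the shHOXB13 and shCtrl backgrounds, with a difference of −1.22 on the log2 scale (SE 0.23, limma with Benjamini-Hochberg adjusted p = 0.00957), since ERBB2 was lower in shHOXB13+shp300/CBP cells than in shHOXB13 cells and higher in shCtrl+shp300/CBP cells than in shCtrl cells.

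The same test for HBEGF gave a difference of −1.25 (SE 0.34, limma adjusted p = 0.0426), with a fall in the shHOXB13 background and groups that overlap in the shCtrl background.

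The effect of CCS1477 on ERBB3 differed between the backgrounds by 0.49 (SE 0.13, limma adjusted p = 0.0306), which is under 1.5-fold. In that test the fall was −0.16 in shHOXB13 cells and −0.65 in shCtrl cells. No cause was tested for these 3 differences.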

How the results depend on the processing

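Over 36 passed and 90 other results of single members, 0 reversed under any alternative. The passed results lost the call in 50 of 511 alternatives, and the others gained one in 30 of 1327. The 511 include 36 without a fold threshold, under which a passed result cannot lose its call. The cause of the changes below was not tested, except that leaving out libraries or groups leaves fewer samples. The count of members passing the test of HOXB13 by shp300/CBP was 2 and became 1 with no filter on low values and 1 with the replicate block. For HOXB13 by shCBP it was 0 and became 1 (HBEGF, −1.56 to −1.47) with a filter at 1 FPKM, with median-of-ratios scaling and with limma-voom. For shHOXB13+shp300/CBP over shHOXB13 it was 3 and became 1 (HBEGF) with median-of-ratios scaling, limma-voom or only the groups compared, and for shHOXB13+shp300 over shHOXB13 it was 0 and became 1 (HBEGF) with the same settings. It was 1 and became 2 for shCtrl+shCBP over shCtrl with median-of-ratios scaling and limma-voom, and was 0 and became 1 (AREG) for shCtrl+shp300 over shCtrl with limma-voom. Without a fold threshold, 4 members instead of 2 passed for shHOXB13 CCS1477 over shHOXB13 DMSO, and 1 instead of 0 for HOXB13 by CCS1477.

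Leaving out 1 library gave 3 instead of 4 members for shHOXB13 over shCtrl, 1–2 instead of 3 for shHOXB13+shp300/CBP over shHOXB13, 2 instead of 3 for shCtrl+shp300/CBP over shCtrl, 0–1 instead of 1 for shCtrl+shCBP over shCtrl, 1–2 instead of 2 for HOXB13 by p300/CBP and 0–1 instead of 0 for HOXB13 by CBP. It gave 2–4 instead of 4 for shHOXB13+shp300/CBP over shCtrl+shp300/CBP, 4–5 instead of 5 for shHOXB13+shp300 over shCtrl+shp300, 2–3 instead of 2 for shHOXB13+shCBP over shCtrl+shCBP, 2–3 instead of 3 for shCtrl CCS1477 over shCtrl DMSO and 3–4 instead of 4 for shHOXB13 CCS1477 over shCtrl CCS1477. It changed none of the counts for shHOXB13 DMSO over shCtrl DMSO (3) and shHOXB13 CCS1477 over shHOXB13 DMSO (2), and the count was 0 throughout for shHOXB13+shp300 and shHOXB13+shCBP over shHOXB13, shCtrl+shp300 over shCtrl, HOXB13 by p300 and HOXB13 by CCS1477. With both shCtrl libraries numbered 1 left out, a setting chosen after seeing the data, ERBB3 in shHOXB13 CCS1477 over shCtrl CCS1477 fell under 1.5-fold (0.52).

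Replicate numbers did not pair the samples in general. Deviations of same-numbered libraries correlated at −0.058 to 0.118 in the knockdown series (median −0.009) and −0.068 to 0.325 in the CCS1477 series (median 0.001). Differently numbered libraries had medians of 0.009 and −0.002. With a highest value of 0.325, a deviation shared by some same-numbered libraries of the CCS1477 series is not excluded, and its source was not tested. The replicate block ended 2 calls, AREG in shHOXB13+shp300 over shCtrl+shp300 (limma adjusted p = 0.0520) and HBEGF in HOXB13 by p300/CBP (limma adjusted p = 0.0590), and changed no other. Depth limits AREG, ERBB4 and EREG.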
